A study of Homo sapiens with 12 samples.

Results

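The mRNAs described here encode the nuclear-encoded subunits of the respiratory chain and of ATP synthase. They were picked by a rule on gene symbols that uses no measured value, and make up 76 of the 57134 genes in the count table: 37 subunits of complex I (7 core and 30 accessory), 4 of complex II, 9 of complex III, 11 of complex IV and 15 of complex V. NDUFA4 carries a complex I name and is counted with complex IV, of which it is a subunit. The series compared total RNA libraries of HCT116, a human colon carcinoma cell line, with and without scDASH, in which Cas9 cuts library molecules that derive from ribosomal RNA. MATQ-seq, which amplifies total RNA from very small inputs, was used for every library. There were 2 DASHed and 2 untreated mini-bulk libraries, and 4 DASHed and 4 untreated libraries of 1 FACS-sorted cell each. All 12 libraries are of the same line, no genotype, drug or time point is named in the labels, and the number of cells in a mini-bulk library is not given in the sources used here.

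The respiratory chain passes electrons from NADH (complex I) and succinate (complex II) through ubiquinone to complex III, and from there by cytochrome c to complex IV, where oxygen is reduced. Complexes I, III and IV pump protons across the inner mitochondrial membrane, and complex V uses the gradient to make ATP. All of these complexes except complex II combine subunits encoded in the nucleus with subunits encoded in the mitochondrial genome.

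Mini-bulk libraries held 837614 and 1087711 estimated counts with depletion and 5803180 and 6026584 without. The DASHed cells held 1018874 to 1573651 counts and the untreated cells 5545355 to 6008358. All 5 epithelial markers (EPCAM, KRT8, KRT18, KRT19 and CDH1) had counts in every mini-bulk library and in every untreated cell, and 3 to 5 had counts in a DASHed cell. ALB and APOA1, the hepatocyte markers, were listed at 0 throughout. Summed markers of fibroblasts and leukocytes reached at most 29.5 and 18.3 CPM (a gene's count scaled to a common library total), against 148 to 4196 CPM for the epithelial ones. Separate cultures are not named in the labels, so the p-values given below reflect the spread among these mini-bulk samples alone, and that spread may be technical. The DASHed and the untreated cell that carry 1 number departed from their group means together, so the groups of cells may not hold different cells. Each single-cell library is 1 cell, and those groups therefore carry no test. Of the 76 members, 30 overlap another annotated gene over at least 10% of their exonic sequence, such as NDUFC2 with the readthrough gene NDUFC2-KCTD14, and 45 have named pseudogenes, so their counts are uncertain where reads were divided between copies.

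Several short promoter sequences were more frequent among the members than among all promoters. RefSeq promoters (GRCh38.p14, 250 bases before to 50 bases after the start) were matched by symbol for 62 of the 76 members. The other 14 had no entry matched. On either strand, GCGC followed by any base and then TGCGC, the letters of an NRF1 site, stood in 15 of 62 (24.2%) against 6.28% of all 27305 promoters. CCGGAAG, the core of ETS-family sites that GABP also binds, stood in 19 of 62 (30.6%) against 10.7%. AAGATGGC, the core of a YY1 site, stood in 11 of 62 (17.7%) against 3.03%. At least 1 of these was found in 36 of 62 (58.1%) against 17.9%, and hits of different motifs overlapped in 0 of 62. TATAAA stood in 6 of 62 (9.68%) against 11.95%, and CCAAT in 19 of 62 (30.6%) against 35.7%. The median GC content was 61.2% in the member promoters and 58.3% in all promoters, and its part in these shares was not tested.

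By complex, the NRF1 letters were found in 6 of 32 promoters of complex I, 2 of 3 of complex II, 4 of 7 of complex III, 0 of 9 of complex IV and 3 of 11 of complex V. The ETS letters were found in 5 of those 9 complex IV promoters, and in 5 of 32, 2 of 3, 3 of 7 and 4 of 11 of complexes I, II, III and V. A match is a description of letters, not a bound site. The 4 promoters below show the patterns, 5′ to 3′ on the gene's strand, with the NRF1, ETS and YY1 letters in capitals. In the promoter of SDHA, the flavoprotein of complex II, 4 copies of the NRF1 letters stood 49 bases apart from one to the next. The promoter of UQCR11, the smallest complex III subunit, held 2 NRF1 and 2 ETS matches. That of UQCRC1, a core protein of complex III, held 1 NRF1 match and 1 YY1 match, and that of COX4I1, a complex IV subunit, held 1 ETS match and no NRF1 match.
SDHA (chr5:218070-218369, plus strand): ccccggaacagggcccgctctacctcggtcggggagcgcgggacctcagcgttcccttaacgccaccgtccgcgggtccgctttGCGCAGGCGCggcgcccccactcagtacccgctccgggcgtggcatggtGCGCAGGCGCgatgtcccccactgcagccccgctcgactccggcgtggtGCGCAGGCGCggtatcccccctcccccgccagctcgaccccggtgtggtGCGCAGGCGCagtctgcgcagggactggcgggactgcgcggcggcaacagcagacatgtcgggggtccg
UQCR11 (chr19:1605413-1605712, minus strand): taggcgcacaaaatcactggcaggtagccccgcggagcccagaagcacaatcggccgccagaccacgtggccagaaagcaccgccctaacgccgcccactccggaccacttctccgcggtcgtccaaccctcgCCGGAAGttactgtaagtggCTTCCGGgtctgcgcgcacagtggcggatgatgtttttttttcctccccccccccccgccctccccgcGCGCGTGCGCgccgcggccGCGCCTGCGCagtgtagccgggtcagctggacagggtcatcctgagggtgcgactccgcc
UQCRC1 (chr3:48609597-48609896, minus strand): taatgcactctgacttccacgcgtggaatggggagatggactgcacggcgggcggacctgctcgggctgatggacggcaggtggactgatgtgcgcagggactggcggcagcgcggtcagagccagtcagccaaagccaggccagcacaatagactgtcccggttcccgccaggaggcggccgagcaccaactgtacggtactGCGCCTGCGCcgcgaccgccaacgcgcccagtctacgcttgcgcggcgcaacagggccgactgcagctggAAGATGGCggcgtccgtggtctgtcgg
COX4I1 (chr16:85799445-85799744, plus strand): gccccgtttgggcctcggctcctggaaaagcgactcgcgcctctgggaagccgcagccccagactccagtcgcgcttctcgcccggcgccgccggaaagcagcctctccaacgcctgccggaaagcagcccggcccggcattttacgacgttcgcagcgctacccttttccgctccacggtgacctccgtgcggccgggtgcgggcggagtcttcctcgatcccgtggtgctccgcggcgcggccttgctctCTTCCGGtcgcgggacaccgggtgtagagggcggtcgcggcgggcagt

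The first comparison asked how much of a library the subunit mRNAs took with and without depletion. In mini-bulk they held 0.210 and 0.190% of all counts after depletion and 0.0486 and 0.0577% without it, so the means differed 3.76-fold. The exact (Clopper-Pearson) 95% binomial intervals of these shares were 0.201 to 0.219%, 0.180 to 0.199%, 0.0469 to 0.0504% and 0.0558 to 0.0597%, and cover counting error only. DASHed cells 1 to 4 held 0.367, 0.283, 0.267 and 0.418%, and untreated cells 1 to 4 held 0.108, 0.113, 0.0826 and 0.138%. In both inputs every DASHed library lay above every untreated one. When ribosomal RNA and the lincRNA genes inside 18S rRNA genes were left out of the total, the shares were 0.366 and 0.306% against 0.343 and 0.323% in mini-bulk, and the ratio fell to 1.009. In single cells the same change gave 0.384 to 0.649% against 0.391 to 0.633%, a ratio of 1.006. On that basis the groups overlapped in both inputs. The share of the untreated cells was 2.08 times that of the untreated mini-bulk libraries over all counts, and 1.52 times without the ribosomal sequences. In bulk RNA, fewer cells that express a gene and less RNA per cell cannot be told apart.

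The split of the subunit counts over the complexes differed between the groups for complex V. In mini-bulk, complex V took 21.8 and 23.0% of the subunit counts with depletion and 33.5 and 32.6% without. In DASHed cells 1 to 4 it took 20.3, 28.3, 24.2 and 20.3%, and in untreated cells 1 to 4 it took 31.1, 35.0, 33.9 and 31.2%. The DASHed and untreated libraries did not overlap in either input. ATP5F1A and ATP5F1B encode the alpha and beta subunits of the catalytic head. Without these genes the other 13 subunits of complex V took 12.3 and 13.2% against 15.4 and 15.1% in mini-bulk, and 7.31 to 15.6% against 11.8 to 20.03% in the cells, where the groups overlapped and the ratio within same-numbered cells was 0.701, 1.06, 0.621 and 0.631. This split was chosen after seeing the data.

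Complex I took 34.2 and 37.7% of the subunit counts in DASHed and 32.01 and 32.6% in untreated mini-bulk libraries. Complex III took 20.3 and 24.2% against 18.2 and 18.9%, and complex II 7.53 and 6.32% against 5.64 and 6.03%. For these complexes the mini-bulk groups did not overlap, while in the cells the ranges of DASHed and untreated libraries overlapped. Within same-numbered cells 1 to 4 the ratio of the DASHed to the untreated share was 1.17, 1.09, 1.17 and 1.19 for complex I, 1.03, 1.18, 1.19 and 1.14 for complex III, and 1.19, 1.18, 1.05 and 1.16 for complex IV. It was 1.38, 0.570, 0.888 and 0.990 for complex II and 0.652, 0.808, 0.715 and 0.651 for complex V. So complexes I, III and IV were higher and complex V lower in each DASHed cell than in the untreated cell of its number, and complex II went both ways. The shares of a library sum to 100%, so a lower share of complex V raises the other shares together. These are therefore not separate results. As shares of counts without ribosomal sequences, the ratio of the single-cell means was 1.16, 1.06, 1.14, 1.17 and 0.70 for complexes I to V. Complex IV took 16.2 and 8.82% against 10.7 and 9.88%, so its DASHed libraries lay on either side of the untreated ones. For complex III, cells 3 and 4 lay above cells 1 and 2 in both treatments. It took 27.9 and 27.9% in untreated cells 3 and 4 and 33.3 and 31.9% in DASHed cells 3 and 4, but 16.3 and 16.1% in untreated cells 1 and 2 and 16.8 and 19.02% in DASHed cells 1 and 2.

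**Figure D1:**
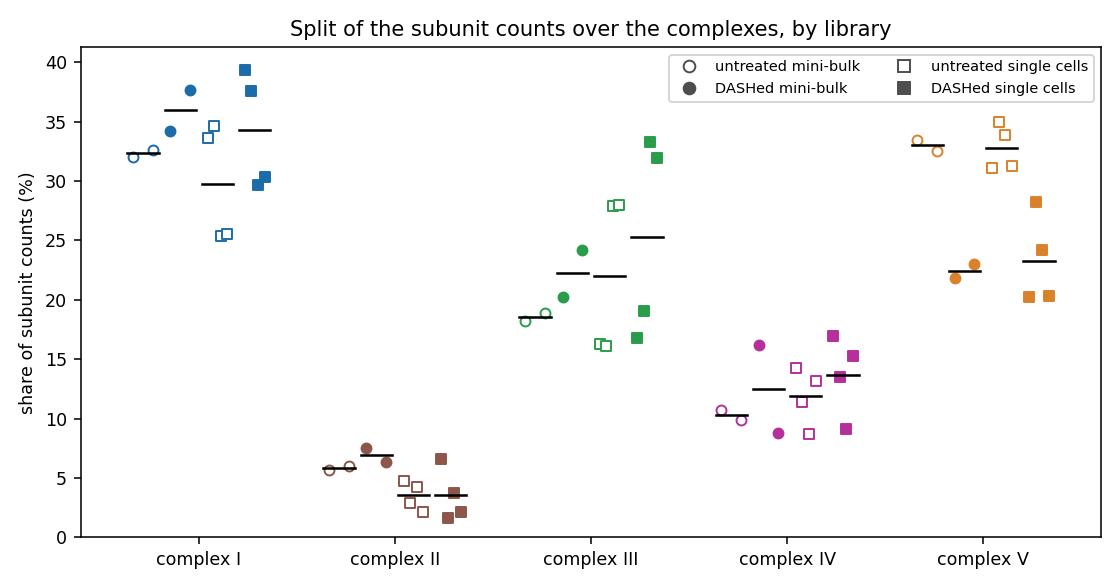
Share of the summed subunit counts taken by each complex (y axis, %), by complex (x axis); each point is 1 library, open for untreated and filled for DASHed, circles for mini-bulk and squares for single cells, and bars are group means. Complex V lies at 32.6 to 33.5% in untreated and 21.8 to 23.0% in DASHed mini-bulk libraries, and complex III falls into separate levels among the cells.

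Single subunits were then compared between DASHed and untreated mini-bulk libraries. Here TMM, a scaling that sets most genes to no change, was applied to the counts, so values are normalised CPM and a change is relative to the other genes. Of the 76 members, 70 passed the filter on low counts. NDUFA1, NDUFB1, NDUFB3, NDUFC1, NDUFS4 and COX5A did not. In the quasi-likelihood test of edgeR (adjusted p under 0.05 over all 10083 genes tested), 2 of 70 rose, against 9.9% of all genes, and 9 of 70 fell, against 19.8%. The rest did not pass. At an unadjusted p under 0.05 in edgeR, 11 of the 70 were higher and 18 lower, against 1685 and 2638 of the 10083 genes. The median log2 fold change was 0.09 over the members and 0.03 over all genes, and that of the members was −0.28 without the first and 0.24 without the second DASHed library. By complex it was 0.41 for complex I, 0.25 for complex II, 0.64 for complex III, −0.52 for complex IV and −0.79 for complex V. On the scale of normalised CPM, both DASHed libraries lay above both untreated ones for 28 of the 70 (31.6% of all genes) and below them for 25 (36.8%). When counts were scaled by library totals alone, the median of all genes moved to 2.04 and that of the members to 2.08, 47 of 70 rose and 0 fell (66.6% and 1.37% of all genes), so each fall below is relative to the other genes. As a share of all counts, 57 of the 70 were higher in both DASHed libraries, against 76.7% of all genes.

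**Figure D2:**
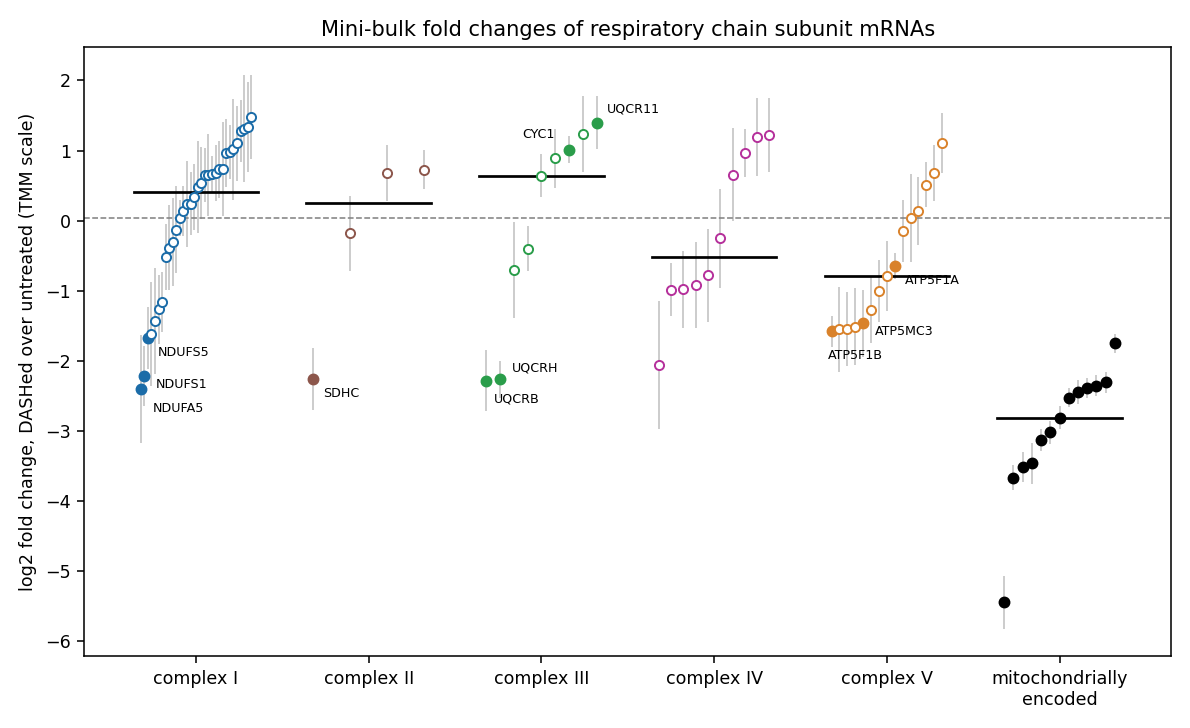
Log2 fold change of DASHed over untreated mini-bulk libraries (y axis, TMM scale) for the 70 members tested, by complex, and for the 13 mitochondrially encoded subunits (x axis); filled points passed the adjusted threshold, bars on points are standard errors, black bars are list medians and the dashed line is the median of all genes. Filled points are 2 above and 9 below among the members and 13 below among the mitochondrially encoded genes.

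In complex I, 0 of 32 subunits tested rose in edgeR (4 at an unadjusted p under 0.05, 0 in DESeq2) and 3 fell. Of all genes, 9.9% rose and 19.8% fell in edgeR. NDUFS1, a core iron-sulfur subunit (chr2:206114817-206159603), stood at 4.43 and 11.7 normalised CPM in the DASHed libraries and at 37.9 and 34.9 in the untreated ones. NDUFA5, an accessory subunit of the peripheral arm (chr7:123536997-123558255), stood at 0.48 and 1.49 against 6.14 and 5.58. NDUFS5, an accessory subunit on the intermembrane space side (chr1:39026318-39034636), stood at 5.25 and 11.6 against 21.5 and 31.4. In each of these the DASHed libraries were the lower ones with no overlap. The log2 fold changes were −2.22 (SE 0.43, adjusted p = 0.00597) for NDUFS1, −2.40 (SE 0.77, adjusted p = 0.0422) for NDUFA5 and −1.68 (SE 0.44, adjusted p = 0.0215) for NDUFS5. NDUFS1 shares 11.7% of its exonic bases with other genes and is uncertain to that extent. The other 6 core subunits did not pass, with log2 fold changes from −1.27 (NDUFV2) to 0.98 (NDUFS7). Scaled by total counts alone, the value of NDUFS5 was 0.33 and thus of the opposite sign. Without the first DASHed library NDUFS5 no longer passed (−1.06). NDUFA5 no longer passed without the first (−1.59) or the second DASHed library (−3.37), and was not tested without either untreated one. The 29 other subunits tested did not pass, from −1.61 (NDUFB5) to 1.48 (NDUFA2).

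In complex II, the succinate dehydrogenase of the citric acid cycle, 1 of 4 subunits fell and 0 rose in edgeR (1 at an unadjusted p under 0.05, 0 in DESeq2). Of all genes, 19.8% fell and 9.9% rose in edgeR. SDHC, a membrane anchor (chr1:161314257-161375340), stood at 3.85 and 4.19 normalised CPM in the DASHed and at 19.5 and 18.6 in the untreated libraries, a log2 fold change of −2.26 (SE 0.44, adjusted p = 0.00618). Its groups were far apart relative to the replicates. SDHD, the other anchor (chr11:112086773-112120013), stood at 5.25 and 6.98 against 7.56 and 6.36, and its libraries overlapped. SDHA, the flavoprotein (chr5:218241-256700), stood at 51.4 and 33.8 against 24.7 and 27.2 (log2 fold change 0.73, SE 0.28, adjusted p = 0.0787). SDHB, the iron-sulfur subunit (chr1:17018722-17054170), stood at 21.5 and 13.4 against 10.6 and 11.3 (log2 fold change 0.68, SE 0.40, adjusted p = 0.218). Both lay above the untreated libraries without passing. Pseudogenes named after SDHA held 20.7 to 26.6% of the combined counts in the group means, so its level is uncertain. With the counts of named pseudogenes added to each member, SDHA passed (log2 fold change 0.72, SE 0.23, adjusted p = 0.0426). SDHD shares 12.2% of its exonic bases with other genes. SDHC was not tested without the second untreated library.

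In complex III, 2 of 9 subunits rose and 2 fell, against 9.9% and 19.8% of all genes. CYC1, cytochrome c1, stood at 97.3 and 110.4 normalised CPM in the DASHed and at 46.9 and 55.9 in the untreated libraries. UQCR11 (chr19:1597172-1605490), whose promoter is shown above, stood at 20.7 and 24.5 against 9.45 and 7.64. These were the subunits that rose, by log2 fold changes of 1.01 (SE 0.19, adjusted p = 0.00597) and 1.4 (SE 0.37, adjusted p = 0.0222). UQCRH, the hinge protein that contacts cytochrome c1 (chr1:46303631-46316776), stood at 13.3 and 11.04 against 60.1 and 58.1. UQCRB, a subunit near the ubiquinone site, stood at 4.77 and 3.68 against 22.1 and 19.1. They fell by log2 fold changes of −2.26 (SE 0.26, adjusted p = 0.000645) and −2.28 (SE 0.44, adjusted p = 0.00583). The core proteins UQCRC1 (0.64) and UQCRC2 (−0.40) and the Rieske protein UQCRFS1 (−0.70) did not pass. Leaving out the first untreated library ended the call of CYC1 (0.76), and leaving out the first or second untreated library ended that of UQCR11 (1.43 and 1.03). UQCR11 shares 10.9% of its exonic bases with another gene.

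In complex IV 0 of 10 subunits passed the edgeR test in either direction, against 29.7% of all genes. At an unadjusted p under 0.05 there were 2 higher and 2 lower, against 1685 and 2638 of all 10083 genes. COX4I1 stood at 94.9 and 42.4 normalised CPM against 38.1 and 33.0 (log2 fold change 0.96, SE 0.34, adjusted p = 0.0601). Its DASHed libraries differed from each other by more than the lower one differed from the untreated libraries. COX7B stood at 2.57 and 0 against 5.62 and 5.198 (log2 fold change −2.06, SE 0.91, adjusted p = 0.115), with 0 counts in the second DASHed library. COX7C stood at 12.1 and 9.30 against 24.2 and 18.2 (log2 fold change −0.98, SE 0.38, adjusted p = 0.0768). COX6A1 stood at 23.9 and 8.72 against 7.18 and 6.87 (log2 fold change 1.22, SE 0.52, adjusted p = 0.107). The log2 fold changes of the 10 spread from −2.06 to 1.22. DESeq2 called COX4I1 (1.11).

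In complex V, 3 of 15 subunits fell and 0 rose in edgeR (1 at an unadjusted p under 0.05, 0 in DESeq2). Of all genes, 19.8% fell and 9.9% rose. Log2 fold changes below 0 were found for 10 of 15 subunits and for 4948 of the 10083 genes. ATP5F1B (chr12:56638175-56646068) stood at 26.2 and 27.9 normalised CPM in the DASHed and at 89.2 and 72.9 in the untreated libraries. ATP5F1A (chr18:46080248-46104334) stood at 78.1 and 62.6 against 111.3 and 111.3. The alpha and beta subunits form 1 catalytic head in equal numbers, and both mRNAs were lower relative to other genes after depletion, by log2 fold changes of −1.58 (SE 0.22, adjusted p = 0.00156) for ATP5F1B and −0.65 (SE 0.19, adjusted p = 0.0283) for ATP5F1A. Scaled by total counts alone these values were 0.46 and 1.36, and that of ATP5MC3 0.55, of the opposite sign. The difference between ATP5F1A and ATP5F1B was not tested. The 3 genes ATP5MC1, ATP5MC2 and ATP5MC3 encode the same mature c subunit of the rotor ring. ATP5MC3 (chr2:175176258-175184607) stood at 3.64 and 5.81 against 13.6 and 12.9 and fell (log2 fold change −1.47, SE 0.48, adjusted p = 0.0466). ATP5MC1 stood at 36.8 and 22.7 against 23.1 and 18.9 (log2 fold change 0.52), and ATP5MC2 at 10.97 and 7.56 against 11.3 and 9.38 (log2 fold change −0.15). Both overlapped between the groups. Leaving out the second DASHed or the first untreated library ended the call of ATP5F1A (−0.38 and −0.79), and leaving out any 1 of the 4 libraries ended that of ATP5MC3 (−1.05 to −1.71).

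The other genes of the pathway were taken from lists chosen with earlier results known. All 13 subunits encoded in the mitochondrial genome fell, and the median of their log2 fold changes was −2.81. They ranged from −1.75 (SE 0.14, adjusted p = 7.24e-05) for MT-ND1, a complex I subunit, to −5.45 (SE 0.38, adjusted p = 4.80e-05) for MT-ATP8, a complex V subunit. They took 1.51 and 1.93% of all counts in the untreated and 1.11 and 1.24% in the DASHed mini-bulk libraries. Gene by gene, 11 of the 13 had a lower share of all counts in both DASHed libraries than in both untreated ones, and 1, MT-ND1, had a higher one. Of the 10083 genes tested, 600 had a lower and 7738 a higher share in that sense. CYCS, which encodes the cytochrome c that links complexes III and IV, fell by 2.33 on the log2 scale (SE 0.29, adjusted p = 0.000835). Of 27 assembly factors tested in edgeR, 0 rose (1 at an unadjusted p under 0.05) and 2 fell, against 9.9% and 19.8% of all genes: COX15, which acts in heme A synthesis (−1.02, SE 0.28, adjusted p = 0.0250), and ATPAF1, an F1 assembly factor (−2.21, SE 0.67, adjusted p = 0.0356). Of 6 regulators of mitochondrial biogenesis tested, PPRC1, a PGC-1-related coactivator, rose (0.84, SE 0.15, adjusted p = 0.00454). Of the tissue or condition isoforms and related genes only COX7A2L had enough counts to be tested, and it fell (−1.86, SE 0.62, adjusted p = 0.0480). With an offset for GC content in each library, described next, these 5 genes did not pass: the log2 fold changes were −1.02 for CYCS, −0.11 for COX15, −1.12 for ATPAF1, 0.38 for PPRC1 and −0.57 for COX7A2L. COX4I2, COX6A2 and COX8C, isoforms of other tissues, were listed at 0 in all 12 libraries.

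The direction of a member's change ran with the base composition of its transcripts. Across the 70 members the log2 fold change correlated with the median GC content of a gene's protein-coding transcripts at a Spearman rho of 0.68, and across 10053 genes at 0.79. Genes share libraries and are not independent replicates, so these are descriptions. Of the 20 members at 55% GC or above, 2 rose and 0 fell (median 0.73). Of 34 members at 45 to under 55%, 0 rose and 6 fell (median −0.04), and of 16 under 45%, 0 rose and 3 fell (median −1.35). All genes showed the same order, with medians of 0.75, −0.23 and −1.69 in those bands. Of all genes, 860 rose and 20 fell of 3755 in the highest band, 126 rose and 598 fell of 3712 in the middle one, and 7 rose and 1374 fell of 2586 in the lowest. The median GC content of the members tested was 51.1% in complex I, 49.2% in complex II, 49.9% in complex III, 49.0% in complex IV and 47.8% in complex V. With an offset for GC content in each library, the complex medians moved to 0.17, 0.44, 0.36, 0.41 and −0.03. Then 3 of 70 members fell (2.45% of all genes), namely SDHC (−1.96), UQCRH (−1.51) and ATP5F1B (−1.34), and 1 rose (1.56% of all genes), SDHB (1.63). All 13 mitochondrially encoded subunits still fell, with a median of −1.60.

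The start of the coding sequence is shown for single members, and it need not have the GC content of the whole transcript. The first 120 coding bases of 3 subunits that fell and of UQCR11, which rose, are given below from GENCODE v29 transcripts (GRCh38), 5′ to 3′, with every G and C in capitals. G and C made up 50 of the 120 bases in NDUFS1, 55 in NDUFA5, 62 in UQCRH and 84 in UQCR11. These 4 were chosen by their calls and GC content, as examples, and the count in them bears on no other gene. Over whole transcripts the median GC content was 43.9% for NDUFS1, 34.4% for NDUFA5, 47.4% for UQCRH and 57.7% for UQCR11. For the members tested it was 50.3%. In the first 120 bases it was 45.8% for NDUFA5 and 51.7% for UQCRH, higher than over their transcripts. For NDUFS1 it was lower, at 41.7%, and for UQCR11 higher, at 70.0%.
NDUFS1: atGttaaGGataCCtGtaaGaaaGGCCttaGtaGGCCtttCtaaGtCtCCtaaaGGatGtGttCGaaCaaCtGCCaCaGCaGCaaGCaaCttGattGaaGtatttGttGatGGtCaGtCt
NDUFA5: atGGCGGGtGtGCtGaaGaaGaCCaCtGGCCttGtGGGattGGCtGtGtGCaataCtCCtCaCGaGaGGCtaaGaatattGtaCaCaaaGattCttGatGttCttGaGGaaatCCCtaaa
UQCRH: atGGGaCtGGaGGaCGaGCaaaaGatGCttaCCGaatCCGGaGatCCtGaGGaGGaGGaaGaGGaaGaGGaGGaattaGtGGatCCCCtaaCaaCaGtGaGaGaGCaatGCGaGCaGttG
UQCR11: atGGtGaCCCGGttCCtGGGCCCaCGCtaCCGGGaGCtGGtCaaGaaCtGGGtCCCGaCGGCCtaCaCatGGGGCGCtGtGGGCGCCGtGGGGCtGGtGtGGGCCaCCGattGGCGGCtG

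**Figure D3:**
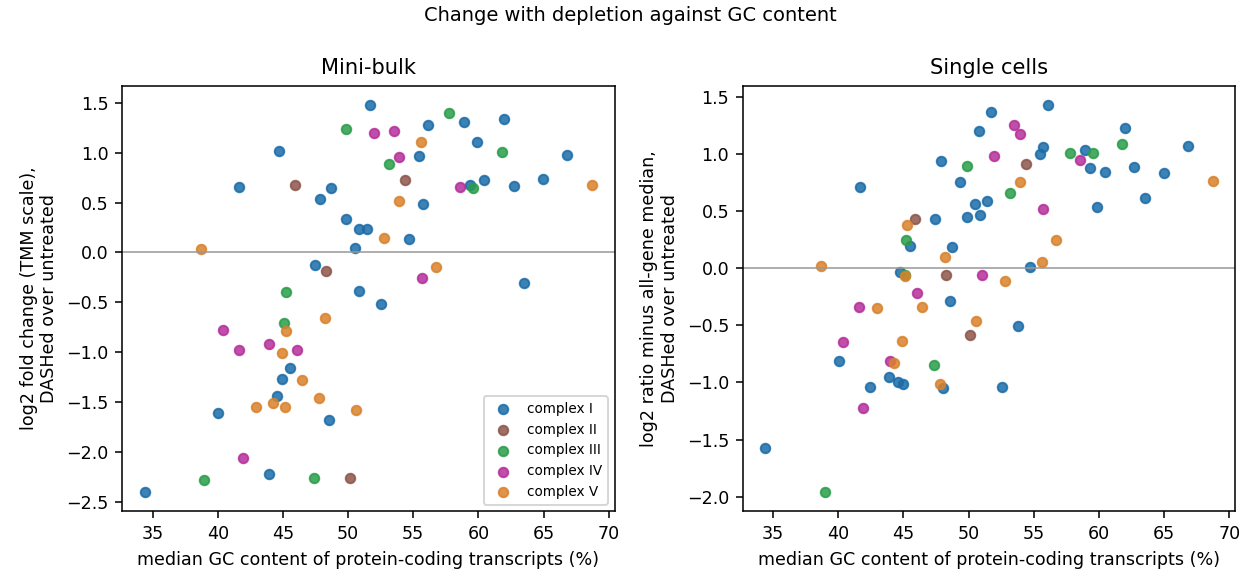
Change with depletion (y axis, log2, mini-bulk on the left and summed single cells on the right) against the median GC content of a gene's protein-coding transcripts (x axis, %); each point is 1 member, coloured by complex. In both inputs the points are higher at higher GC content, with Spearman rho of 0.68 over 70 and 0.71 over 75 members.

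Levels were compared between genes only per length, as counts over the median length of a gene's protein-coding transcripts, in permille of the sum over the 76 members. The lengths are rough, and the order within a complex changed with the transcript chosen. In complex I, NDUFB2, an accessory subunit of the membrane arm, averaged 37.6 ± 16.4 over the 4 mini-bulk libraries and NDUFA10, another accessory subunit, 34.3 ± 5.21 (SD, n = 4). These highest subunits overlapped. NDUFS5 stood at 27.6 and 42.3 in the untreated libraries, where NDUFB2 stood at 40.5 and 24.8 and NDUFA10 at 26.9 and 37.8, and at 6.75 and 18.7 in the DASHed ones. When the principal transcript of the APPRIS annotation set the length, NDUFA11 ranked first, NDUFS5 ranked 2nd, NDUFB2 4th and NDUFA10 11th. The lowest tested were NDUFV3 at 1.25 ± 0.30 and NDUFB11 at 1.4 ± 0.82, which also overlapped. In complex II, SDHC averaged 18.3 ± 13.2, SDHB 15.1 ± 5.0, SDHA 12.8 ± 4.34 and SDHD 5.74 ± 1.19. SDHC stood above the other subunits in the untreated libraries (29.7 and 29.7) and below SDHB and SDHA in the DASHed ones (5.89 and 7.99). With the APPRIS transcript SDHC ranked 4th.

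In complex III, CYC1 averaged 48.2 ± 23.5 and UQCRH 42.9 ± 31.4. Their order turned with treatment: in the untreated libraries UQCRH stood at 69.5 and 70.7 and CYC1 at 26.4 and 33.1, and in the DASHed ones UQCRH stood at 15.4 and 16.1 and CYC1 at 55.2 and 78.2. The lowest of the complex were UQCR10 at 7.36 ± 3.86 and UQCRFS1 at 0.86 ± 0.34. In complex IV, COX4I1 averaged 54.1 ± 27.2 and lay above COX7C, the next at 17.6 ± 6.28, in each of the 4 libraries. COX7B at 3.95 ± 3.09 and NDUFA4 at 1.77 ± 0.78 were lowest. In complex V, ATP5F1A averaged 74.0 ± 15.8 and ATP5F1B 46.4 ± 25.1, and ATP5PB, a peripheral stalk subunit, 4.29 ± 2.72 and ATP5F1E, the epsilon subunit, 1.99 ± 0.67 (SD, n = 4 throughout). With the APPRIS transcript, ATP5MC1 ranked first and ATP5F1A ranked 5th. Of the c subunit genes, ATP5MC1 averaged 37.6 ± 10.4, ATP5MC2 8.98 ± 0.77 and ATP5MC3 7.91 ± 4.07, and ATP5MC1 lay above the others in every mini-bulk library. Per length, complex V held 33.2 and 32.8% of the subunit total in untreated and 25.0 and 27.7% in DASHed libraries.

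**Figure D4:**
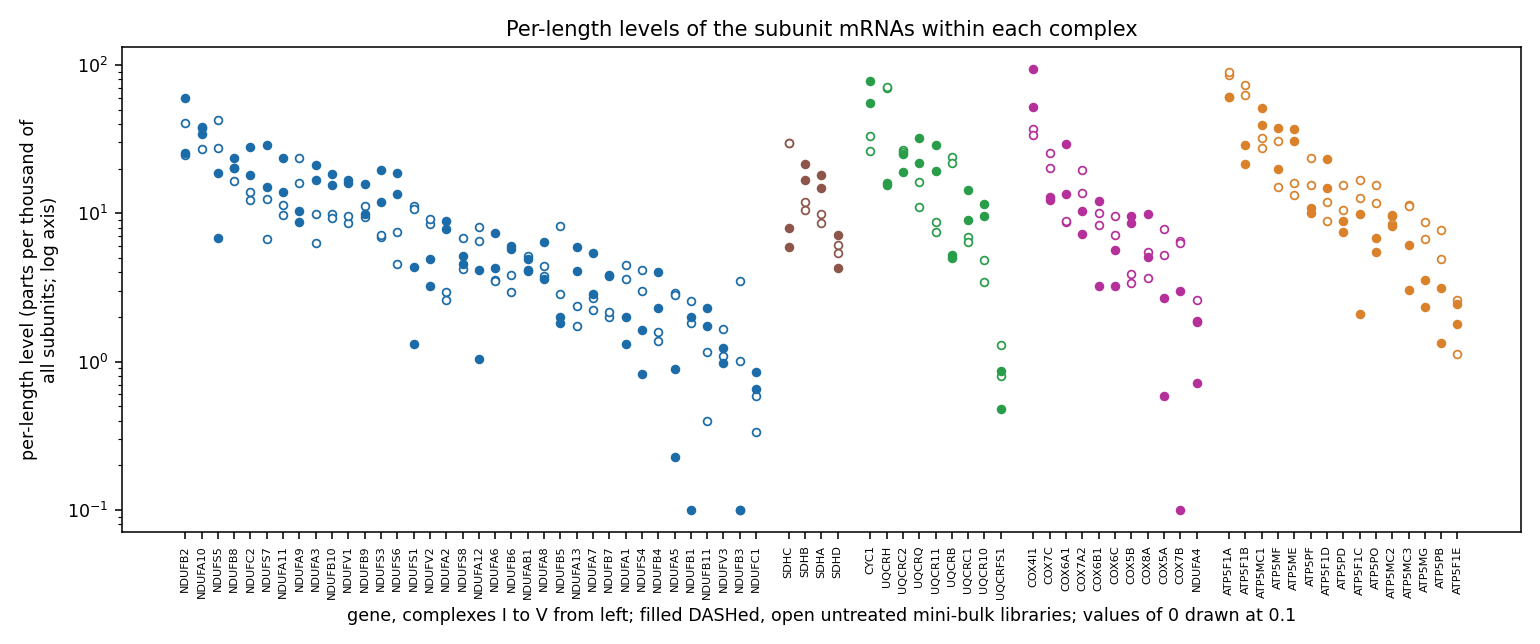
Per-length level of 75 of the members (y axis, permille of the sum over the 76 members, log axis) by gene within complexes I to V (x axis); open points are the 2 untreated and filled points the 2 DASHed mini-bulk libraries, and values of 0 are drawn at 0.1. COX4I1 stands above the other complex IV subunits in all 4 libraries, while CYC1 and UQCRH change places between treatments.

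The same comparison in single cells divided each gene's ratio of summed CPM by that of the median gene, which was 2.20-fold higher in DASHed cells. Of the 76 members, 75 had at least 20 counts over the 8 cells, all but NDUFB3. Their median log2 ratio was 0.25 against 0 by construction for all genes. 12 of the 75 were at least 2-fold above the median gene, against 12.6% of all genes, and 8 were at least 2-fold below, against 23.7%. By complex the median was 0.55 for complex I, 0.19 for complex II, 0.66 for complex III, −0.06 for complex IV and −0.07 for complex V. As the mean over same-numbered cells, the median over the members was 0.64. A gene with 0 counts in both cells of a pair enters that mean as unchanged, so undetected genes are part of its background. The median of the summed ratios was 0.58 without DASHed cell 3 and 0.14 without DASHed cell 4. It was −0.017 when each gene was set against genes of like expression, so its size and sign were not stable. On that centring more members were at least 2-fold below than above, and all genes were not counted. The log2 ratios of the members then ran from −2.27 (UQCRB) to 1.11 (NDUFA2). In 36 of the 75 the ratio lay above that of the median gene in all 4 same-numbered pairs, and in 4 it lay below in all: NDUFS1, UQCRB, COX7B and ATP5PB. Of all 13469 genes with at least 20 counts, 2822 lay above and 1690 below in all 4 pairs. The median gene was taken within each pair, and in pair 2 it stood at the value of genes with 0 counts in both cells. Mini-bulk and single-cell changes correlated across 70 members at a Spearman rho of 0.85, against 0.80 across 9447 genes, and 59 of 70 lay on the same side of the background in both.

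In each complex the member with the highest and the one with the lowest ratio are given, with exact intervals from the summed counts that cover counting error only. The intervals use no pseudocount, while the ratios use 1 CPM, so a ratio need not lie at the middle of its interval. NDUFS6, an accessory subunit of complex I, held 165, 11.8, 26.7 and 83.9 CPM in DASHed cells 1 to 4 and 26.7, 2.52, 3.33 and 14.3 CPM in untreated cells 1 to 4. This was 2.69-fold above the median gene (95% interval 2.46 to 3.37), and cell 1 was highest in both groups. NDUFA5 had 2 counts in the DASHed cells together and at most 7 counts in an untreated cell, a ratio of 0.34 (0.0228 to 0.836), but a log2 ratio of 0.22 when set against genes of like expression, and so of the opposite sign. In complex II, SDHA was 1.89-fold above (1.70 to 2.28) and SDHC 1.496-fold below (ratio 0.67, 0.524 to 0.920). Cell 1 held 287 of the 379 SDHA counts of the DASHed cells, and without that pair of cells SDHA was 1.11-fold above the median gene. In pair 3 its log2 ratio relative to the median gene was −0.22. In complex III, CYC1 was 2.13-fold above (2.02 to 2.29) and UQCRB 3.89-fold below (ratio 0.26, 0.178 to 0.329). CYC1 held 245, 224, 634 and 343 CPM in DASHed cells against 44.1, 47.8, 146 and 78.5 CPM in untreated ones. UQCRB held 2.49, 13.7, 2.60 and 18.4 CPM against 2.10, 23.3, 12.98 and 30.5 CPM, so the levels of the groups overlapped although its share relative to other genes was lower in all 4 pairs. In complex IV, COX6A1 was 2.38-fold above (2.17 to 2.93) and COX7B 2.34-fold below (ratio 0.43, 0.324 to 0.549). In complex V, ATP5F1D, the delta subunit of the central stalk, was 1.70-fold above (1.496 to 2.29) and ATP5MC3 2.02-fold below (ratio 0.50, 0.399 to 0.614). The upper ratios were smaller against genes of like expression. Their log2 values were then 0.79 for NDUFS6, 0.25 for SDHA, 0.19 for CYC1, 0.56 for COX6A1 and 0.42 for ATP5F1D. Relative to the median gene they were 1.43, 0.91, 1.09, 1.25 and 0.77. On the lower side SDHC stood at −0.72, UQCRB at −2.27, COX7B at −1.52 and ATP5MC3 at −1.38 against genes of like expression.

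Libraries of different single cells agreed less over the members than mini-bulk replicates did. Whether this lies in the cells or in the amplification of 1 cell was not tested. Between mini-bulk replicates the Spearman correlation over the 76 members was 0.93 (untreated) and 0.88 (DASHed), whereas between cells of a group it was 0.46 to 0.62. Over same-numbered DASHed and untreated cells it was 0.85 to 0.93, and over cells of different numbers 0.36 to 0.54. In untreated cells 72, 65, 67 and 69 of the 76 members had over 3 counts, and in DASHed cells 64, 53, 64 and 69. The untreated cells held more counts in total, so these numbers are not at equal depth. Thinned to 1018873 counts, untreated cells 1 to 4 were expected to hold 70.2, 62.6, 64.8 and 68.2 members with a count. DASHed cells 1 to 4 were expected to hold 70.9, 67.0, 70.9 and 72.5. A range of at least 10-fold between the untreated cells was found for 29 of 75 members (38.7%), against 47.0% of all genes. For 56 of 75 members (74.7%) the same cell number was highest in both groups, against 77.5% of all genes.

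In the complex I core, 5 of 7 members ranged over at least 10-fold between untreated cells. NDUFV1, which binds the flavin that takes electrons from NADH, had 149, 228, 3 and 130 counts in untreated cells 1 to 4 and 192, 168, 3 and 131 counts in DASHed cells 1 to 4. NDUFS7, which carries the last iron-sulfur cluster before ubiquinone, had 108, 1, 90.3 and 215 counts in untreated and 118, 1.01, 107 and 247 counts in DASHed cells. Thus cell 3 was low in NDUFV1 and cell 2 in NDUFS7 in both libraries of that number. NDUFV3 was similarly high in cells 1 and 3 (96.1 and 85.7 counts untreated) and at 4.26 and 0 counts in untreated cells 2 and 4. Of the c subunit genes, ATP5MC2 held 18.7 CPM in untreated cell 2 and 0 to 1.91 CPM in the other untreated cells, while ATP5MC1 held 7.16 to 44.1 CPM and ATP5MC3 11.4 to 26.05 CPM. In complex II, SDHB held 8.16 to 13.5 CPM in untreated and 23.4 to 39.4 CPM in DASHed cells, SDHC 4.96 to 12.5 and 1.87 to 28.2 CPM, and SDHD 1.44 to 4.33 and 0.98 to 18.2 CPM. The high share of complex III in cells 3 and 4 went with different genes. CYC1 was highest in cell 3 in both groups (146 CPM untreated), and UQCRC1 was highest in cell 4, at 91.2 CPM untreated and 395 CPM DASHed against 9.55 to 41.7 and 41.5 to 168 CPM in the other cells.

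**Figure D5:**
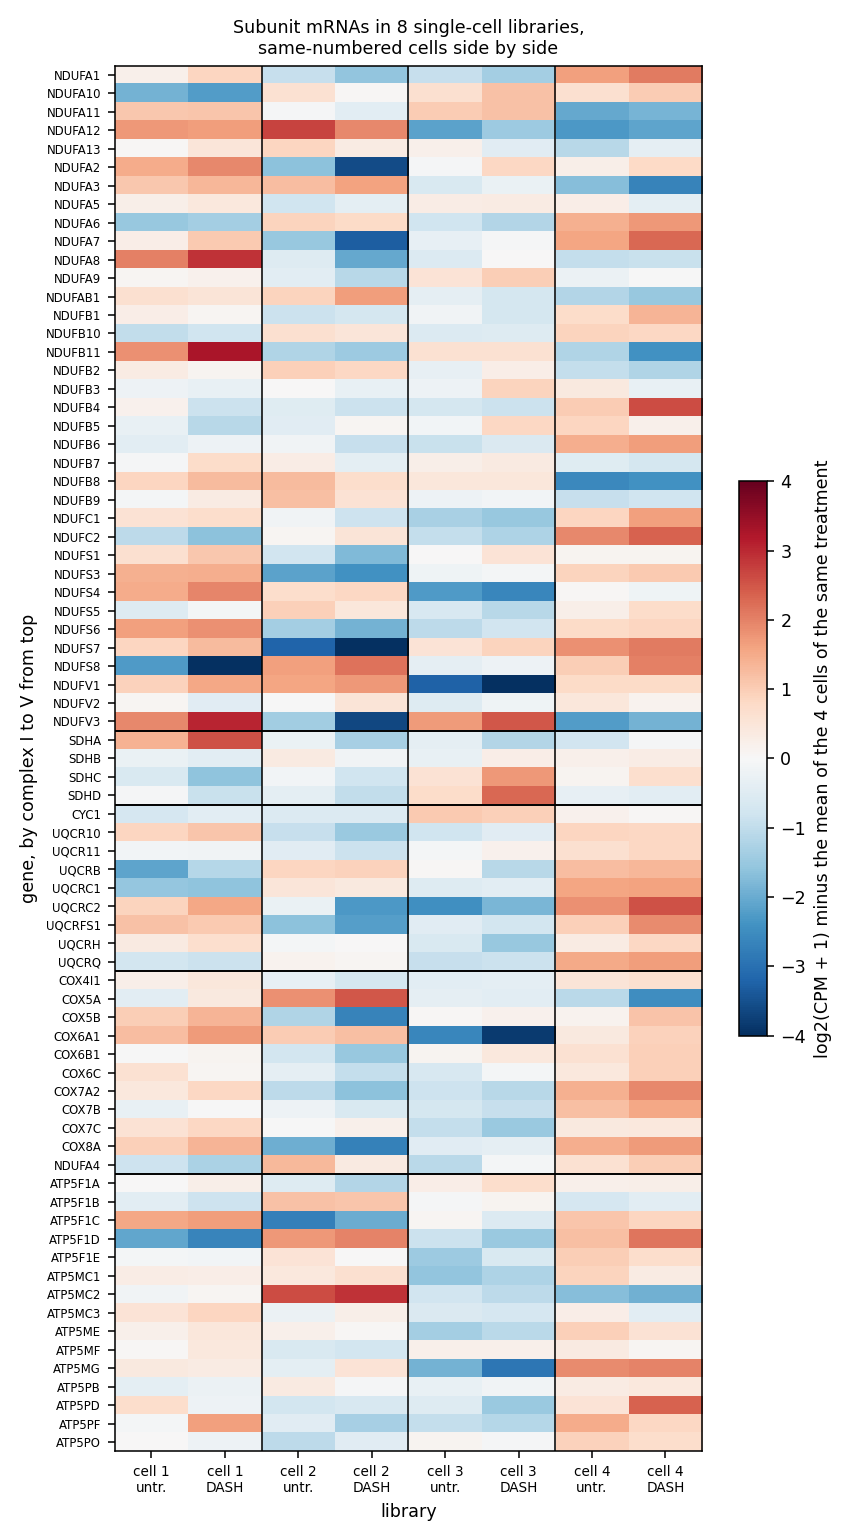
Level of 75 of the members (rows, complexes I to V from the top, separated by lines) in the 8 single-cell libraries (columns, same-numbered untreated and DASHed cells side by side), as log2(CPM + 1) minus the mean of the 4 cells of the same treatment; red is above and blue below that mean. Within a pair of columns the colours run alike, as for NDUFV1 in cell 3 and NDUFS7 in cell 2, and they differ between cells.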

How the data were processed

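Total RNA libraries of HCT116 cells were made by MATQ-seq (4 mini-bulk and 8 single-cell libraries), and groups came from the sample titles. The authors deposited estimated counts by gene in 1 table. The submitters' processing notes name kallisto 0.46.2. Its genome build, annotation and strand setting: not given in the sources used here. Estimated counts can be divided between genes that share sequence. Of 57134 gene names, 57079 matched GENCODE v29, from which lengths, GC content and coordinates (GRCh38) were taken. The rule uses symbols only, but the members and lists were chosen with earlier results of these data known.

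For mini-bulk, counts were rounded and tested with edgeR 4.0.16 (R 4.3.3, TMM, its expression filter, quasi-likelihood test, Benjamini-Hochberg over all genes tested, threshold 0.05), a step tested on simulated data. Genes in the mini-bulk comparison were named where they had the largest folds past the threshold in a complex, the highest or lowest per-length levels, or belonged to complex II or the c subunit. In single cells the highest and lowest ratio of each complex among genes with at least 20 counts were named. COX4I1, COX7C, COX6A1, the other core subunits of complex I, and the cell-by-cell examples NDUFV1, NDUFS7, NDUFV3 and UQCRC1 were added after their values were seen where that rule does not name them. Single-cell ratios are log2 of summed CPM with a pseudocount of 1, minus the median of all genes. Same-numbered DASHed and untreated cells deviated together (r = 0.89 to 0.91 over 9101 genes), a pairing that comes from the data alone. Promoters came from RefSeq (GRCh38.p14). One member is counted in the totals and is not reported by name here. Alternatives were DESeq2 1.42.0, other scalings and filters, named pseudogene counts added, a GC offset, replicate blocks and left-out libraries. Single-cell alternatives for named genes were added after seeing the data. Floors of 3 counts lay between 0.498 and 3.58 CPM, and intervals cover counting error only. Summaries used Python 3.11.15.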

Additional observations from a re-analysis of the deposited data

Results flagged for a closer look

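Within groups of 4 single cells, 18 of 152 member groups held 1 cell far from the other 3. Chance alone flags about 1 in 20 groups where values are normal and groups independent, which CPM of single cells and same-numbered cells are not. Among genes with at least 20 counts, 17 of 150 member groups (11.3%) and 7697 of 26938 groups of all genes (28.6%) held such a cell. Among DASHed cells the outlying values were 30.2 CPM for NDUFA8, 50.5 for NDUFB11 and 216 for SDHA in cell 1. They were 63.8 CPM for ATP5MC2 in cell 2, and 1.3 for NDUFB3 and 18.2 for SDHD in cell 3. In DASHed cell 4 they were 10.2 CPM for NDUFB4, 47.1 for NDUFB6 and 23.1 for ATP5PD. Among untreated cells the outlying values were 6.95 CPM for NDUFA8, 36.2 for SDHA and a low 0.52 for NDUFA10 in cell 1. In untreated cell 2 they were 31.7 CPM for COX5A, 18.7 for ATP5MC2 and 0 for NDUFA5, and in untreated cell 4 4.81 for NDUFB5, 12.3 for NDUFB6 and 29.6 for COX7B. NDUFA8, NDUFB6, SDHA and ATP5MC2 stood out in the same cell number in both treatments.

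For NDUFA9 and ATP5F1A the inputs differed in direction when the single cells were centred on the median gene. Both DASHed mini-bulk libraries lay below both untreated ones on the TMM scale, while all 4 pairs of single cells lay above the median gene. That gene was taken within each pair, and in pair 2 it stood at the value of genes with 0 counts in both cells. The log2 ratios of summed CPM relative to the median gene were 0.19 for NDUFA9 and 0.10 for ATP5F1A. The ratio for NDUFA9 had an interval of 0.967 to 1.53, which includes no difference from that gene. Set against genes of like expression, the values were −0.055 and −0.78, negative as in mini-bulk, so the single-cell direction depends on the centring. The difference between inputs was not tested.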

How the results depend on the processing

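Against 2 members higher and 9 lower in mini-bulk, DESeq2 gave 3 and 5, total counts alone 47 and 0, the GC offset 1 and 3, the replicate block 13 and 19, and the GC offset with the replicate block 6 and 4. Of all genes, 8.96% rose and 12.1% fell in DESeq2, 66.6% and 1.37% with total counts alone, 1.56% and 2.45% with the GC offset, 23.4% and 30.2% with the replicate block, and 7.95% and 7.78% with both. Leaving out 1 library gave 0 to 8 members higher and 7 to 8 lower, against 2.44 to 11.5% and 13.99 to 17.8% of all genes. The replicate block shared 11 of the 11 calls. The numbers are not shown to pair the mini-bulk samples: with 2 pairs their correlation (0.44) is mirrored as −0.44 between different numbers. Total counts alone moved the members' median to 2.08 and reversed ATP5F1A (1.36), ATP5F1B (0.46), ATP5MC3 (0.55) and NDUFS5 (0.33). NDUFS5, ATP5F1A and ATP5MC3 did not pass in DESeq2, and NDUFA5 had no adjusted p there. ATP5F1A, NDUFA5 and ATP5MC3 did not pass without the expression filter. With the GC offset, 8 of the 11 calls did not pass, NDUFS1, UQCRB, CYC1 and UQCR11 among them. NDUFS1, UQCRB, UQCRH and ATP5F1B passed with each library left out.

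The single-cell median (0.25) was 1.11 with genes of at least 1 count and −0.017 when centred on genes of like expression. It was 0.64 as the mean of same-numbered pairs (replicate block). Genes with 0 counts in both cells of a pair entered that mean as unchanged. Leaving out 1 cell gave 0.14 to 0.58, and leaving out 1 pair, chosen after seeing the data, up to 0.46. Of the 10 genes named for the highest or lowest single-cell ratio, only SDHA moved by over 1.5-fold when 1 pair was left out, and none changed sign. The ratio of shares was 1.009 in mini-bulk and 1.006 in single cells without ribosomal sequences. The per-length share of complex V in untreated libraries (33.0%) was 29.3% with the longest transcript and 29.8% with the APPRIS transcript, chosen after seeing the data, which gave 23.6% in DASHed libraries (26.4%). The cause of these differences was not tested. In the DASHed mini-bulk libraries 7 and 13 of the 76 members had at most 3 counts, which limits what could be detected there.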
